A study of Mus musculus with 6 samples.

Results

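The Cyp4a genes of the mouse encode cytochrome P450 enzymes of the endoplasmic reticulum that hydroxylate the terminal (omega) carbon of fatty acids. Members were chosen by gene family, by their symbols and with no threshold on measured values, though with earlier results of these data known: Cyp4a10, Cyp4a14, Cyp4a12a, Cyp4a12b, Cyp4a31 and Cyp4a32, which are 6 of the 40803 genes in the count table. They are not every gene with a Cyp4a symbol, since Cyp4a29 was listed with other Cyp4 genes below. All 6 passed the filter on low counts, which left 16327 genes for testing.

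Omega-hydroxylation opens a side route of fatty acid breakdown: the hydroxylated acid is oxidised to a dicarboxylic acid, which peroxisomes then shorten. The same enzymes can turn arachidonic acid into 20-HETE, a lipid that acts on blood vessels and the kidney. Cyp4a10 and Cyp4a14 are textbook targets of PPAR alpha, the nuclear receptor that senses fatty acids in hepatocytes and switches on their oxidation, and rise in fasting and with fibrate drugs. Cyp4a12a is known as the main arachidonic acid omega-hydroxylase of the male mouse and depends on androgen.

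Liver RNA was sequenced from C57BL6 mice of 2 groups with 3 mice each, rAAV8-Scramble and rAAV8-Hnf1aos1. Both groups were normally fed males that received an adeno-associated virus of serotype 8 by tail vein at about 6 weeks of age, and livers were taken 4 weeks later. In both, the virus carried a U6-driven short hairpin RNA together with an EGFP reporter; the hairpin was scrambled in the first group and directed against the long non-coding RNA Hnf1aos1 in the second. The U6 promoter is active in any cell type that the virus enters, and the comparison contains no group without virus. The question addressed here is how the level of each Cyp4a gene differed after knockdown of Hnf1aos1.

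Gene counts summed to between 14704746 and 19462398 per library, and ERCC spike-ins (synthetic RNAs added to each sample) made up 1.18% to 1.52% of the counts. Normalized counts of Hnf1aos1 were 512, 491 and 620.3 in rAAV8-Scramble replicates 1, 2 and 3, and 278, 258 and 433 in rAAV8-Hnf1aos1 replicates 1, 2 and 3, so the groups did not overlap. The log2 fold change was -0.74 (standard error 0.195), which did not pass edgeR's quasi-likelihood test (adjusted p = 0.0625) and passed that of DESeq2 (adjusted p = 0.00326). Without rAAV8-Hnf1aos1 replicate 3, edgeR called it at -1.01 (adjusted p = 0.000261). Hnf1aos1 is annotated as an antisense gene, and its counts are uncertain if strands were not separated. Hepatocyte markers such as Alb and Apob were abundant in every library, with a summed level of 82956 to 94291 CPM (counts scaled to library size) in the rAAV8-Scramble and 93872 to 106778 in the rAAV8-Hnf1aos1 group.

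The 6 members lie in a gene cluster on chromosome 4, within 322.557 kb of GRCm38 (chr4:115299046-115621602). Cyp4a12a (chr4:115299046-115332815) and Cyp4a12b (chr4:115411624-115439034) stand at the start of the cluster on the + strand. Cyp4a14 (chr4:115486200-115496142) is the only member on the - strand. Cyp4a10 (chr4:115518264-115533649), Cyp4a31 (chr4:115563649-115579015) and Cyp4a32 (chr4:115600969-115621602) follow on the + strand. Each is annotated as a protein-coding gene of 12 or 13 exons.

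Their coding sequences fall into 3 sets. Cyp4a12a and Cyp4a12b shared 98.5% of their coding bases. Cyp4a10 shared 97.2% with Cyp4a32 and 96.6% with Cyp4a31. Cyp4a14 stood apart, with 74.9% to 75.8% identity to the other members. This matters for the counts, which hold uniquely mapped reads only. Of all 150-base windows (the length of a read) of the Cyp4a12a transcript, 25.6% occurred unchanged in Cyp4a12b, and 25.9% in the other direction. The share was 4.34% for Cyp4a10, 4.19% for Cyp4a31 and 7.97% for Cyp4a32, and it was 0% for Cyp4a14. Levels of the members other than Cyp4a14 are therefore uncertain to the extent that reads were dropped or assigned to a near-identical copy.

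**Figure D1:**
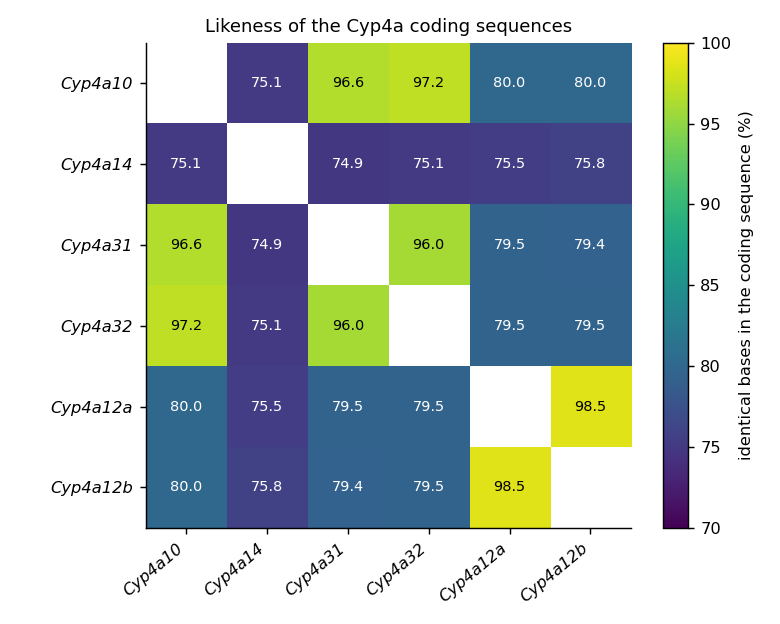
Percentage of identical bases between the coding sequences of each pair of Cyp4a members, as coloured cells with their values (colour scale from 70 to 100%). The Cyp4a12 pair (98.5%) and the set of Cyp4a10, Cyp4a31 and Cyp4a32 (96.0% to 97.2%) form the bright blocks, and Cyp4a14 is at most 75.8% identical to any other member.

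The stretches that best tell near-identical copies apart are shown first for the Cyp4a12 pair. They are coding bases 660 to 809, read 5′ to 3′ from exons 6 and 7 (GRCm38, + strand, chr4:115326658-115327238 for Cyp4a12a and chr4:115432911-115433491 for Cyp4a12b, with the intron left out), and capitals mark the 9 positions at which the pair differs.
Cyp4a12a: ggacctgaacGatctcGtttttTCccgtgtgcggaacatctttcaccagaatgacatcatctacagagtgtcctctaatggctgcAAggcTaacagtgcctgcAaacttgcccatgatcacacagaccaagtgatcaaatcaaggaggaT
Cyp4a12b: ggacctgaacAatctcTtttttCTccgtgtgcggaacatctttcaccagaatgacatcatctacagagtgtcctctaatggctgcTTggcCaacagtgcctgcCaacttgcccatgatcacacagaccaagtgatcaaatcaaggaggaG

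For the other set, coding bases 112 to 261 are shown, from exons 1 and 2 (+ strand, chr4:115518433-115519701 for Cyp4a10, chr4:115563828-115565081 for Cyp4a31 and chr4:115601086-115602331 for Cyp4a32, intron left out). Capitals mark the 16 positions at which at least 1 of the 3 genes differs. A read that covers these positions can be assigned to its gene, while a read from a stretch that is unchanged between copies cannot on its own. Reads were aligned as pairs, and the other read of a pair may cover a differing position. The window shares above count single reads.
Cyp4a10: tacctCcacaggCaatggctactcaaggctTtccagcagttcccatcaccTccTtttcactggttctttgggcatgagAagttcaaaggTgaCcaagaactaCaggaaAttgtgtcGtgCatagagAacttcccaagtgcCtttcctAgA
Cyp4a31: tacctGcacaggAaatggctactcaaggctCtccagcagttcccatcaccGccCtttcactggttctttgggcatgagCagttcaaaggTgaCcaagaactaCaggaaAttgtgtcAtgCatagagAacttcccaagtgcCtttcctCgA
Cyp4a32: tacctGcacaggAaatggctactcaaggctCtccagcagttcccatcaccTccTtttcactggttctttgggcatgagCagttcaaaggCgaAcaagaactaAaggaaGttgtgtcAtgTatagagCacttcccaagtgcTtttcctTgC

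After the knockdown, 2 of the 6 members, Cyp4a10 and Cyp4a31, were called lower by edgeR (adjusted p under 0.05 over all 16327 genes), and 0 were called higher. Among all genes tested, 3.23% were called lower, 3.09% higher and 6.32% in either direction. DESeq2 called 3 of 6 lower, with Cyp4a14 added, and 0 higher, against 3.59% lower, 3.82% higher and 7.4% in either direction among its 16586 genes. At an unadjusted p under 0.05, edgeR passed 5 of the 6 members and 23.4% of all genes. The groups did not overlap for 4 members in which the rAAV8-Hnf1aos1 libraries were all lower and for 1, Cyp4a12a, in which they were all higher, against 13.7% and 15.2% of all genes (28.9% in either direction). The median log2 fold change was -0.79 over the 6 members and -0.00 over all genes tested.

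Cyp4a10, a fatty acid omega-hydroxylase under PPAR alpha, had normalized counts of 1884, 3800 and 2442 in rAAV8-Scramble replicates 1, 2 and 3. In rAAV8-Hnf1aos1 replicates 1, 2 and 3 it had 259, 347 and 600.5. The highest knockdown library was below the lowest scramble library, and the mean went from 2708 ± 986 to 402 ± 177 (SD, n = 3 each), which is 14.9% of the scramble mean. Cyp4a10 fell by 2.75 on the log2 scale (standard error 0.453, edgeR adjusted p = 0.0419, DESeq2 adjusted p = 9.73e-07). The edgeR call depended on which library was left out. Without rAAV8-Scramble replicate 1, 2 or 3 or rAAV8-Hnf1aos1 replicate 1 or 2 the adjusted p was 0.0619 to 0.158. Without rAAV8-Hnf1aos1 replicate 3 it was 0.0254. The log2 fold change over all 6 such fits stayed between -3.16 and -2.43.

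Cyp4a14, the other PPAR alpha-dependent omega-hydroxylase, had the largest difference in means and the largest spread of the 6 members. Its normalized counts were 1392, 5616 and 1755 in rAAV8-Scramble replicates 1, 2 and 3, and 87.7, 109 and 219 in rAAV8-Hnf1aos1 replicates 1, 2 and 3. Replicate 2 of the scramble group was far above the other two, yet the groups did not overlap. The means were 2921 ± 2341 and 139 ± 70.5 (SD, n = 3 each), a coefficient of variation of 80.1% in the scramble group, and the knockdown mean was 4.75% of the scramble mean. The log2 fold change of -4.39 (standard error 0.841) did not pass edgeR's test (adjusted p = 0.0656) and passed that of DESeq2 (adjusted p = 2.93e-07). Without rAAV8-Scramble replicate 2, the difference shrank to -3.50 and edgeR called it (adjusted p = 0.0458). The study itself names Cyp4a10, Cyp4a12a, Cyp4a14 and Cyp4a31, and Acot genes, in its account of this experiment, so their direction is not independent evidence.

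Cyp4a31, a less abundant relative of Cyp4a10, had normalized counts of 145, 99.9 and 119.9 in rAAV8-Scramble replicates 1, 2 and 3 and of 55.3, 76.0 and 68.8 in rAAV8-Hnf1aos1 replicates 1, 2 and 3. The groups did not overlap. It fell by 0.86 on the log2 scale (standard error 0.198, edgeR adjusted p = 0.0303, DESeq2 adjusted p = 0.0131), to 54.9% of the scramble mean. The edgeR call was lost without rAAV8-Scramble replicate 1 or 3 or rAAV8-Hnf1aos1 replicate 1 or 2 (adjusted p = 0.0575 to 0.123).

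Cyp4a32, the other gene of this set, had normalized counts of 1055, 1461 and 838 in rAAV8-Scramble replicates 1, 2 and 3 and of 337, 681 and 1016 in rAAV8-Hnf1aos1 replicates 1, 2 and 3. The groups overlapped, since knockdown replicate 3 was above scramble replicate 3. The log2 fold change of -0.72 (standard error 0.471) did not pass the test (edgeR adjusted p = 0.434, DESeq2 adjusted p = 0.458), and the means of 1118 ± 316 and 678 ± 340 (SD, n = 3 each) differed by little more than the spread within groups.

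Cyp4a12a, the androgen-dependent member, had normalized counts of 7405, 7498 and 5926 in rAAV8-Scramble replicates 1, 2 and 3 and of 8146, 7779 and 9057 in rAAV8-Hnf1aos1 replicates 1, 2 and 3. Every knockdown library was above every scramble library, with means of 6943 ± 882 and 8327 ± 658 (SD, n = 3 each). The log2 fold change of 0.26 (standard error 0.116) did not pass the test (edgeR adjusted p = 0.200, DESeq2 adjusted p = 0.214). With library sizes taken from the spike-ins it was 0.46 and passed (adjusted p = 0.0283), a scaling that moved the median of all genes by 0.20.

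Cyp4a12b, its near-identical copy, had normalized counts of 1868, 1691 and 1662 in rAAV8-Scramble replicates 1, 2 and 3 and of 1308, 1373 and 1605 in rAAV8-Hnf1aos1 replicates 1, 2 and 3. The groups did not overlap, though knockdown replicate 3 came close to scramble replicate 3. The log2 fold change of -0.28 did not pass the test (edgeR adjusted p = 0.113, DESeq2 adjusted p = 0.165), and it was -0.08 with library sizes from the spike-ins. Without rAAV8-Hnf1aos1 replicate 3 it was -0.37 and was called (edgeR adjusted p = 0.0317).

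In exact two-sided permutation tests on log2 normalized counts, p was 0.1 for each member except Cyp4a32 (p = 0.2), and 0.1 is the smallest value that 3 against 3 libraries can give. In bulk liver RNA, fewer cells that express a gene and less RNA per cell cannot be told apart.

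**Figure D2:**
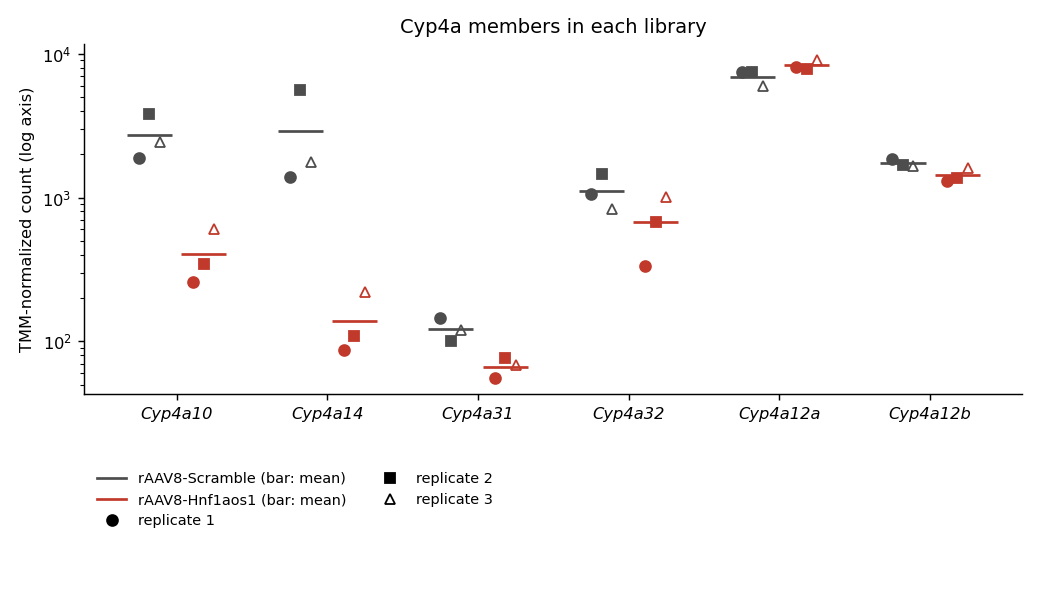
TMM-normalized counts (log axis) of the 6 Cyp4a members in each library, in grey for rAAV8-Scramble and red for rAAV8-Hnf1aos1, with a symbol for each replicate and a bar at the group mean. Cyp4a10 and Cyp4a14 show wide gaps between the groups (means of 2708 and 402, and of 2921 and 139), Cyp4a32 overlaps, and the groups of the Cyp4a12 pair lie close together.

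**Figure D3:**
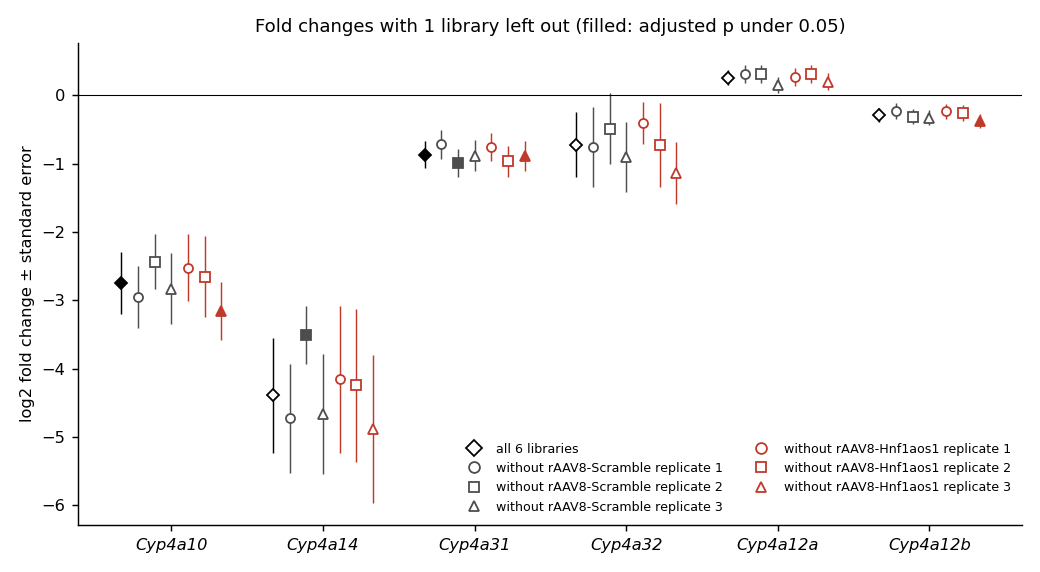
Log2 fold changes (rAAV8-Hnf1aos1 over rAAV8-Scramble, bars ± standard error) of the 6 members with all 6 libraries (diamonds) and with 1 library left out at a time (grey and red symbols); filled symbols have an edgeR adjusted p under 0.05. The values of Cyp4a10 stay between -3.16 and -2.43 and those of Cyp4a14 between -4.88 and -3.50, while filled symbols are few.

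Sums over near-identical copies do not depend on how reads were split between them. Cyp4a10, Cyp4a31 and Cyp4a32 together had 3948 ± 1234 normalized counts in the rAAV8-Scramble and 1147 ± 518 in the rAAV8-Hnf1aos1 group (SD, n = 3 each), with no overlap. The log2 fold change was -1.78 (standard error 0.437) and did not pass edgeR's test (adjusted p = 0.0938) but passed that of DESeq2 (adjusted p = 0.00312). Cyp4a12a and Cyp4a12b together had 8683 ± 950 and 9756 ± 799 (SD, n = 3 each), which overlapped, at a log2 fold change of 0.17 (standard error 0.113, edgeR adjusted p = 0.398). Over all 6 members the sums were 15552 ± 4027 and 11042 ± 1323 (SD, n = 3 each), at a log2 fold change of -0.49 (standard error 0.172) that edgeR did not call (adjusted p = 0.119) and DESeq2 did (adjusted p = 0.0336).

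Ratios between members in the same library do not depend on the scaling of libraries. Of the 15 pairs of members, 13 had ratios that did not overlap between the groups. The pairs share members and are not independent, and the share over all pairs of genes was not computed. The exact permutation p was 0.1 for each of these 13, the smallest possible. The smallest Benjamini-Hochberg adjusted p over the 15 pairs was 0.115. The log2 ratio of Cyp4a14 to Cyp4a12a was lower by 4.49 in the knockdown group (means of -1.53 and -6.02). Cyp4a10 over Cyp4a14 went the other way, from 0.12 ± 0.589 to 1.56 ± 0.106 on the log2 scale (SD, n = 3 each). Within the near-identical pair, the log2 ratio of Cyp4a12a to Cyp4a12b was 1.99, 2.15 and 1.83 in scramble replicates 1, 2 and 3 and 2.64, 2.50 and 2.50 in knockdown replicates 1, 2 and 3. The pairs that overlapped were Cyp4a12b over Cyp4a32 and Cyp4a31 over Cyp4a32 (p = 0.4 and p = 0.9, exact permutation test).

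Levels of different genes were compared in the deposited TPM, which scale counts by gene length. How these TPM were computed is not described, and reads of near-identical copies may have been dropped or misassigned, so the order is approximate. In the rAAV8-Scramble group Cyp4a12a was highest at 373 ± 37.6 TPM (SD, n = 3), above Cyp4a10 in every library. Cyp4a10 (169 ± 58.7), Cyp4a14 (114 ± 89.1), Cyp4a12b (94.7 ± 5.36) and Cyp4a32 (70.2 ± 18.2) followed, and the range of each overlapped that of its neighbour in the order. Within each scramble library Cyp4a10 was above Cyp4a14, while the order of Cyp4a14, Cyp4a12b and Cyp4a32 varied between libraries. Cyp4a31 was lowest, at 6.26 ± 1.17 TPM, without overlap. In the rAAV8-Hnf1aos1 group the order was Cyp4a12a (425 ± 34.2), Cyp4a12b (73.6 ± 6.87), Cyp4a32 (40.2 ± 19.5), Cyp4a10 (23.7 ± 10.04), Cyp4a14 (5.15 ± 2.54) and Cyp4a31 (3.25 ± 0.414). There, the range of Cyp4a32 overlapped that of Cyp4a10 and the range of Cyp4a14 that of Cyp4a31, and the other neighbours did not overlap. Within each knockdown library the order was the same as that of the means.

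Summed over the 6 members, TPM were 738, 1029 and 713 in rAAV8-Scramble replicates 1, 2 and 3 and 545, 525 and 643 in rAAV8-Hnf1aos1 replicates 1, 2 and 3. The groups did not overlap (exact permutation test, p = 0.1, the smallest possible). Cyp4a12a made up 46.0% ± 7.50 of this sum in scramble and 74.7% ± 4.26 in knockdown libraries (SD, n = 3 each). The share of Cyp4a10 went from 20.2% ± 3.81 to 4.07% ± 1.28 and that of Cyp4a14 from 12.8% ± 7.26 to 0.880% ± 0.331, each without overlap. The share of Cyp4a12b was 11.8% ± 2.67 and 12.9% ± 0.260 and overlapped (p = 0.9, exact permutation test).

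**Figure D4:**
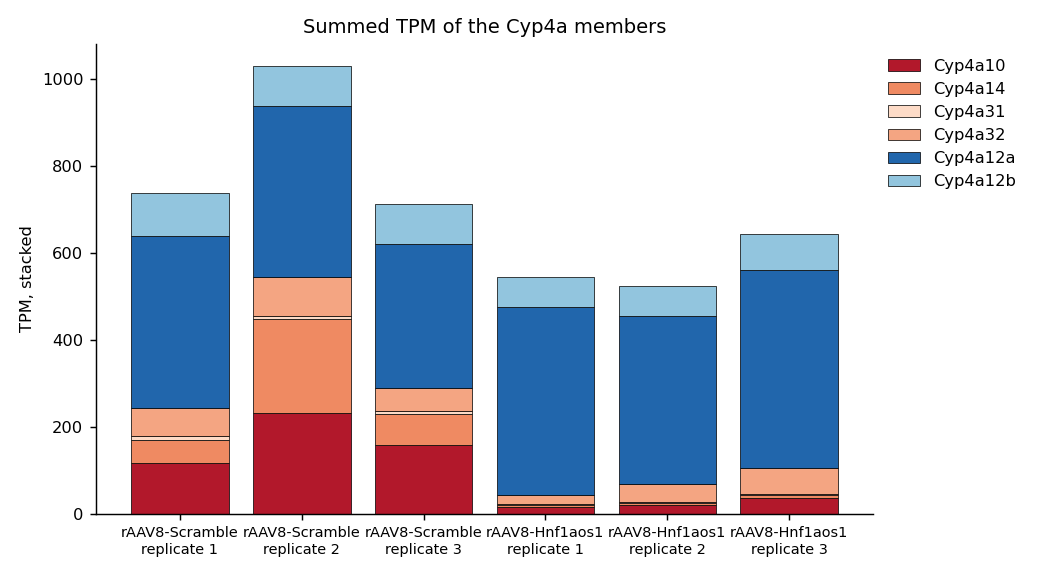
Stacked TPM of the 6 Cyp4a members in each library. The 3 rAAV8-Scramble bars reach 713 to 1029 TPM and the 3 rAAV8-Hnf1aos1 bars 525 to 643; the dark blue part (Cyp4a12a) is of like height throughout, and the red and orange parts (Cyp4a10 and Cyp4a14) are small in the knockdown bars.

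The pathway around the members was described with lists of genes, chosen with earlier results of these data known. Among 47 further PPAR alpha targets, all of them tested, edgeR called 8 lower and 0 higher, against 3.23% and 3.09% of all genes. DESeq2 called 12 lower and 0 higher, against 3.59% and 3.82% of all genes. The median log2 fold change was -0.31, and 43 of the 47 were below 0, against 8172 of all 16327 genes tested. Without rAAV8-Scramble replicate 3 the count called lower was 5, and without rAAV8-Hnf1aos1 replicate 3 it was 13.

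Of 17 peroxisomal targets, edgeR called 4 lower, against 3.23% of all genes, while 16 had a log2 fold change below 0. Acot3 and Acot4, acyl-CoA thioesterases that act on the products of peroxisomal oxidation, fell by 3.29 and 1.66 on the log2 scale. Acaa1b, a thiolase of peroxisomal beta-oxidation, fell by 0.94 and Crat, a carnitine acetyltransferase, by 0.79 (edgeR adjusted p = 0.000142 for Acot3, 0.000689 for Acot4, 0.0336 for Acaa1b and 0.00803 for Crat). The call of Acaa1b was lost without rAAV8-Scramble replicate 2 or 3 or rAAV8-Hnf1aos1 replicate 1 or 2 (adjusted p = 0.0521 to 0.115), and with no filter on low values (adjusted p = 0.0569). Ehhadh, a bifunctional enzyme of that route, was not called by edgeR at -0.45 (adjusted p = 0.0889, 0.0034 without knockdown replicate 3), but was by DESeq2 (adjusted p = 0.0359) and by edgeR with library totals (adjusted p = 0.0461) or with no filter on low values (adjusted p = 0.00279). Abcd2, a peroxisomal transporter of long acyl chains, had a high replicate 2 in the scramble group like Cyp4a14, with normalized counts of 118, 428 and 211 in scramble replicates 1, 2 and 3 and 50.5, 65.6 and 67.0 in knockdown replicates 1, 2 and 3 (edgeR adjusted p = 0.0939). DESeq2 called Abcd2 (adjusted p = 0.00516), as did edgeR without scramble replicate 1 or 2 (-2.38 and -1.43).

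Of 13 mitochondrial targets, edgeR called 2 lower, against 3.23% of all genes, while 11 had a log2 fold change below 0. Pdk4, the kinase that shuts off pyruvate dehydrogenase, fell by 1.71 and the thioesterase Acot2 by 1.66 on the log2 scale (edgeR adjusted p = 0.000209 and 0.00578). Of 17 targets for uptake, storage and signals, edgeR called 2 lower, against the same 3.23%, while 16 had a log2 fold change below 0. The lipid droplet protein Plin5 fell by 0.70 and monoacylglycerol lipase, Mgll, by 0.56 (edgeR adjusted p = 0.0224 and 0.0211). Both calls were lost without scramble replicate 2 (adjusted p = 0.0702 and 0.0554) or 3 (adjusted p = 0.122 and 0.0846), and that of Mgll also without knockdown replicate 2 (adjusted p = 0.0673) or with spike-in library sizes (adjusted p = 0.0760). Not called by edgeR were G0s2, an inhibitor of triglyceride lipase, at -1.72 (adjusted p = 0.0529, 0.0181 without scramble replicate 1), Acot1 at -1.68 (adjusted p = 0.0914, 0.00414 without knockdown replicate 3) and Angptl4, an inhibitor of lipoprotein lipase, at -1.05 (adjusted p = 0.211, 0.000811 without knockdown replicate 3). DESeq2 called G0s2 (adjusted p = 0.000235) and Acot1 (adjusted p = 0.0186) but not Angptl4 (adjusted p = 0.123), and edgeR called G0s2 with spike-in library sizes (adjusted p = 0.0413) or a minimum mean of 50 counts (adjusted p = 0.0414). The Acot genes are close paralogs, and reads could be shared between them.

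Of 11 regulators of this pathway, 0 were called by edgeR in either direction, against 6.32% of all genes. An unadjusted p under 0.05 in edgeR was reached by 2, against 23.4% of all genes. DESeq2 called 1 higher, against 3.82%. Ppara itself had normalized counts of 5678, 6839 and 5843 in scramble replicates 1, 2 and 3 and 4749, 5914 and 5080 in knockdown replicates 1, 2 and 3, which overlapped (log2 fold change -0.22, standard error 0.114, adjusted p = 0.269). Rxra, the partner receptor, had 5639 ± 567 and 7206 ± 451 (SD, n = 3 each; edgeR adjusted p = 0.0686, DESeq2 adjusted p = 0.0284). EdgeR called Rxra higher with spike-in library sizes (adjusted p = 0.0107), with no filter on low values (adjusted p = 0.0207) and without knockdown replicate 3 (adjusted p = 0.0426).

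Of 11 genes that act with or after the members in omega-oxidation, 0 were called by edgeR or DESeq2, against 6.32% and 7.4% of all genes. In edgeR 3 passed an unadjusted p under 0.05, against 23.4% of all genes. Por, the reductase that passes electrons to every microsomal P450, had 1989 ± 85.8 and 1685 ± 39.3 normalized counts (SD, n = 3 each) without overlap (adjusted p = 0.108). Aldh3a2, a fatty aldehyde dehydrogenase, was at -0.84 (standard error 0.325, adjusted p = 0.203). EdgeR called Por with library totals (-0.31, adjusted p = 0.0416) and Aldh3a2 with the replicate number as a block (-0.85, adjusted p = 0.0234).

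The other Cyp4 genes gave 9 tested of 16 listed. EdgeR called 0 of them, against 6.32% of all genes, and 2 passed an unadjusted p under 0.05, against 23.4%. DESeq2 called 1 lower, against 3.59%: Cyp4f15 (log2 fold change -0.52, edgeR adjusted p = 0.104, DESeq2 adjusted p = 0.0226). Cyp4f14, an omega-hydroxylase of leukotriene B4, was not called at -0.32 (edgeR adjusted p = 0.118). With no filter on low values, edgeR called Cyp4f15 (adjusted p = 0.00903) and Cyp4f14 (adjusted p = 0.0419). Cyp4f15 was also called without knockdown replicate 3 (adjusted p = 0.0199) and with the replicate number as a block (adjusted p = 0.0279). Cyp4a29 had 0 counts in every library. Within 250 kb of the cluster, 24 other genes are annotated, of which 13 had a row and 7 were tested. EdgeR and DESeq2 called 0 of these 7, against 6.32% and 7.4% of all genes. In edgeR 1 passed an unadjusted p under 0.05, against 23.4% of all genes, and their median log2 fold change was -0.04.

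**Figure D5:**
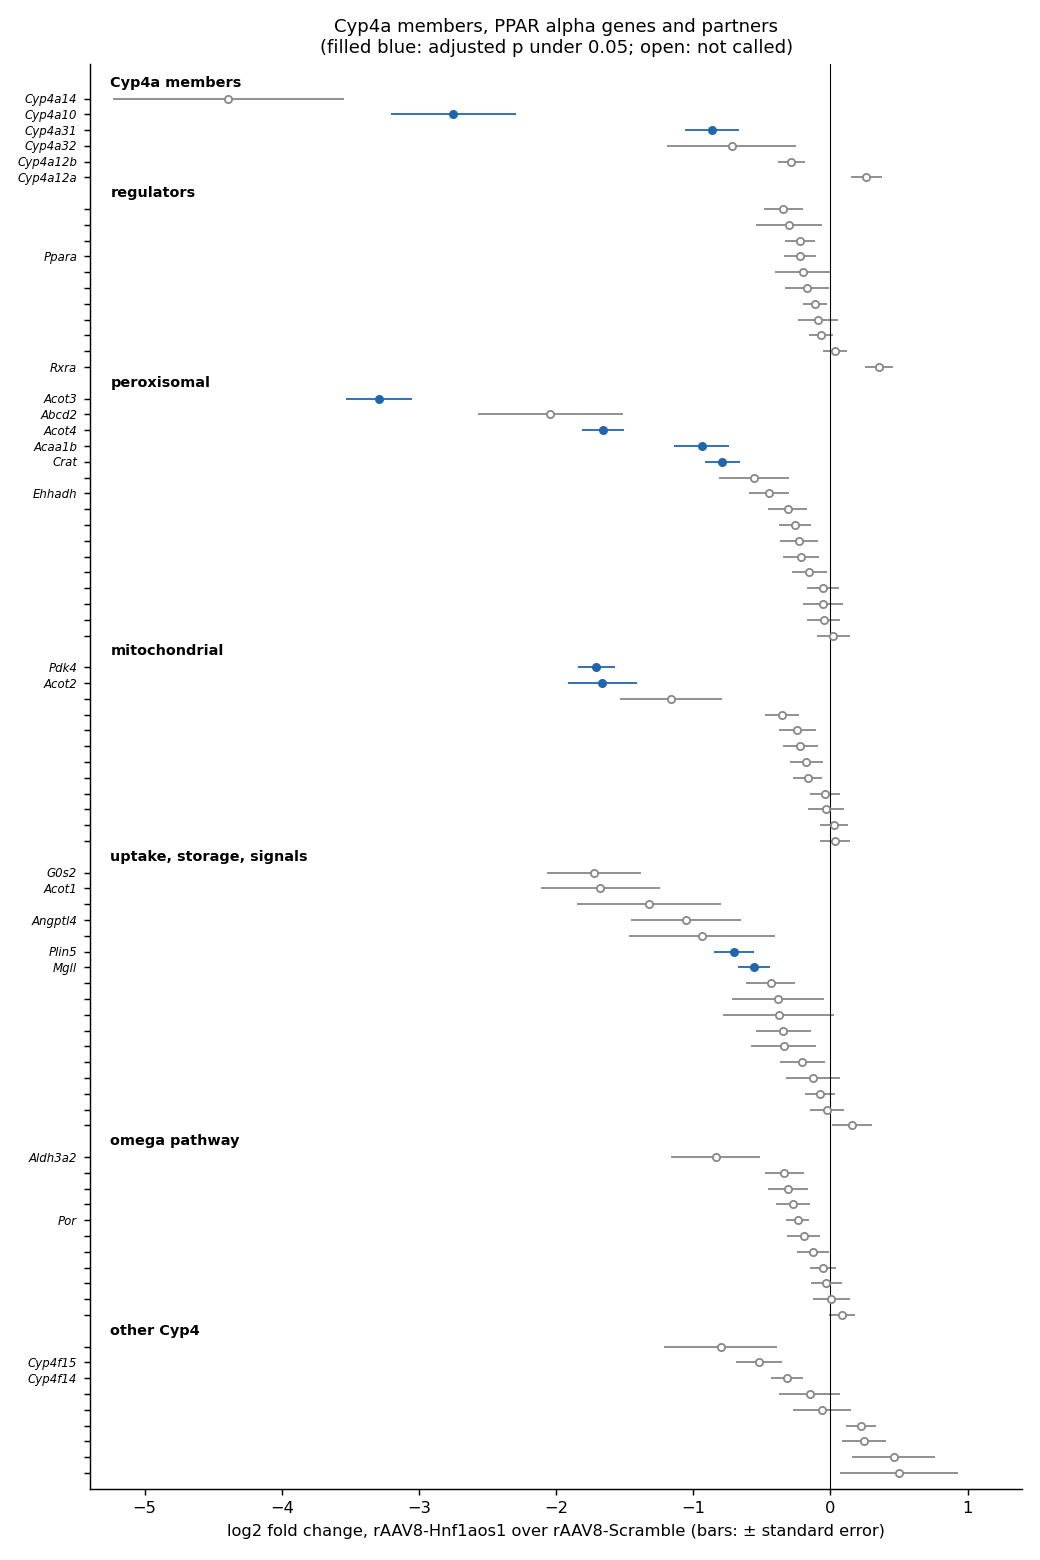
Log2 fold changes (rAAV8-Hnf1aos1 over rAAV8-Scramble, bars ± standard error) of the Cyp4a members, PPAR alpha regulators and targets by site, omega-oxidation partners and other Cyp4 genes, with names for the genes described in the text; filled blue points have an edgeR adjusted p under 0.05. The called points all lie below 0, from -3.29 for Acot3 to -0.56 for Mgll, and Cyp4a14 at -4.39 is the lowest point but is open.

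Among 14679 genes with at least 1 CPM on average, those most like Cyp4a10 over the 6 libraries by Pearson's r of log2 CPM were Rabgap1l (0.999), Nxt2, Nfic and Cpped1 (0.993). Those most like Cyp4a14 were Gsdme (0.998), D130043K22Rik, Cyp2c38, Neu2 and Cpped1 (0.994). For Cyp4a12a they were Ric8a (0.993), Norad, Ccdc12, Sec62 and Smim30 (0.989). Among members, Cyp4a10 and Cyp4a14 had r = 0.993, and Cyp4a10 and Cyp4a12a r = -0.59. These values describe 6 libraries that also differ by group, and carry no test.

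The summed markers of Kupffer cells and macrophages and of cholangiocytes did not overlap between the groups, while those of the other cell types overlapped. The 11 Kupffer cell and macrophage markers summed to 245 to 291 CPM in scramble and 314 to 396 CPM in knockdown libraries, without overlap. EdgeR called 5 of 11 higher, among them Clec4f and Lyz2, against 3.09% of all genes tested, and none were at 0. The calls of Clec4f and Lyz2 were lost without scramble replicate 2 or 3 or knockdown replicate 2, and that of Clec4f also without knockdown replicate 1 (adjusted p = 0.0745 to 0.174). The 6 cholangiocyte markers summed to 34.0 to 40.4 and 49.0 to 149 CPM, with 0 of 4 tested markers called by edgeR or DESeq2 and 0 at an unadjusted p under 0.05. Among all genes tested by edgeR, 23.4% passed that unadjusted limit. Sinusoidal endothelial (352 to 394 and 338 to 384 CPM), stellate (340 to 453 and 311 to 416 CPM), lymphocyte and neutrophil (6.12 to 8.62 and 8.42 to 9.99 CPM) and kidney tubule (2.96 to 5.01 and 3.34 to 5.47 CPM) markers overlapped between the groups, with Ly6g, Kap and Aqp2 at 0 in all libraries. The part of these differences in the Cyp4a results was not tested.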

How the data were processed

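Liver RNA-seq libraries of 3 rAAV8-Scramble and 3 rAAV8-Hnf1aos1 mice were grouped by their GEO labels. The authors trimmed reads with Trimmomatic, used STAR to align pairs to GRCm38, and deposited raw counts of uniquely mapping exonic reads from featureCounts; the submitters' processing notes name GRCm39 instead, and 91.9% of row symbols matched RefSeq GRCm38.p6. The strand setting is not given in the sources used here. The library kit is a poly(A) kit in the study's methods and rRNA depletion in the labels. The authors also deposited TPM values, whose computation is not described, and normalized counts, a signal obtained by dividing counts by 1 factor per library, which was not used. Their table of log2 fold changes and p-values was not used either.

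The 92 ERCC rows entered neither library sizes nor tests. In R 4.3.3, edgeR 4.0.16 with TMM, filterByExpr and a robust quasi-likelihood fit of the group was applied to all genes, with Benjamini-Hochberg adjustment over 16327 genes and calls at an adjusted p under 0.05. Normalized counts are counts divided by TMM-scaled library size relative to the mean library, log2 fold changes are knockdown over scramble, and standard errors are the log2 fold change over the square root of F. Sums of members replaced their rows in the same fit. Gene positions and transcripts are from GENCODE M21 (GRCm38), matched by symbol. The 150-base windows of each member's transcript were searched, in both orientations, among all transcripts of that annotation. The members and lists were chosen with earlier results of these data known. Genes named are the members, Hnf1aos1, listed genes, genes within 250 kb of the cluster and, for Cyp4a10, Cyp4a14 and Cyp4a12a, the 5 genes most correlated over libraries; a few genes of this rule are not reported here.

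Alternatives were DESeq2 1.42.0, limma 3.58.1 (voom, and TPM with 0.1 or 1 added before log2), other scalings and filters, the replicate number as a block, and each library left out. Same-numbered libraries did not deviate together (correlations of -0.01, 0.04 and 0.00), so numbers were not taken as pairs. Libraries of a group differed by 7.68 to 31.6 in chi-square per gene, more than sampling noise. The fits were tested on simulated data. Each library is from a separate mouse per the study's methods. With 3 libraries a group and a biological coefficient of variation of 13.9%, variation between libraries limits the precision more than depth does.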

Additional observations from a re-analysis of the deposited data

How the results depend on the processing

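No member or sum changed direction under any alternative run. Cyp4a10 was no longer called when low counts were not filtered (-2.75, adjusted p = 0.0515 in edgeR). Cyp4a14 was called by DESeq2 (-4.39), with spike-in library sizes (-4.21) and from TPM with 0.1 or 1 added (-4.27 and -4.03). Cyp4a12a was called with spike-in library sizes (0.46). Hnf1aos1 was called by DESeq2 (-0.74), voom (-0.77) and without a filter (-0.74). DESeq2 called the sums of Cyp4a10, Cyp4a31 and Cyp4a32 (-1.78) and of all 6 members (-0.49). Members called lower numbered 1 without a filter.

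With 1 library left out, log2 fold changes ranged from -3.16 to -2.43 for Cyp4a10, -4.88 to -3.50 for Cyp4a14, 0.15 to 0.32 for Cyp4a12a, -0.37 to -0.23 for Cyp4a12b, -0.99 to -0.72 for Cyp4a31, -1.13 to -0.40 for Cyp4a32 and -1.01 to -0.60 for Hnf1aos1. Members called lower numbered 0 to 3 and PPAR alpha targets called lower 5 to 13.

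The replicate numbers were not taken as pairs, and not every library correlated best with its own number. Such correlations cannot exclude that same-numbered libraries shared a batch. With the replicate block, edgeR called 878 genes in place of 1032, Abcd2 was among the calls (-1.91, adjusted p = 0.0227), Cyp4a31 was not called (-0.86, adjusted p = 0.0633), Hnf1aos1 was (-0.77), and members called lower numbered 1. The count of all called genes was 1902 without a filter, 3394 with spike-in library sizes (364 lower and 3030 higher), 594 and 641 from TPM, and 103 to 1881 with 1 library left out; library totals gave 729 lower and 319 higher in place of 527 and 505. The cause of these differences was not tested.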

Other observations

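Genes of the Cyp2c and Cyp2j families were listed with the epoxide hydrolases as the counterpart of the omega-hydroxylases. These families include epoxygenases, which turn arachidonic acid into another group of lipid mediators. Whether each listed gene acts as an epoxygenase was not assessed. The paper places Cyp2c70 under drug metabolism, so its change is not read here as that of an epoxygenase. Of 14 tested, edgeR called 0 lower and 1 higher, against 3.23% and 3.09% of all genes tested. DESeq2 called 2 lower and 1 higher, against 3.59% and 3.82%. Cyp2c70, the gene that edgeR called, rose by 1.26 on the log2 scale (standard error 0.116, adjusted p = 0.000665). Its normalized counts went from 4836 ± 179 to 11560 ± 1602 (SD, n = 3 each). Cyp2c38 had normalized counts of 745, 1890 and 862 in rAAV8-Scramble replicates 1, 2 and 3 and 151, 216 and 257 in rAAV8-Hnf1aos1 replicates 1, 2 and 3, with no call by edgeR (-2.48, adjusted p = 0.0600) and a call by DESeq2 (adjusted p = 1.67e-05); without scramble replicate 2 edgeR called it too (-1.95, adjusted p = 0.00487). Cyp2c genes are close paralogs that may share reads.

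Since Cyp4a12a is a male-biased gene, other sex-biased liver genes were counted. Of 16 male-biased genes, edgeR called 7 higher and 0 lower, against 3.09% and 3.23% of all genes tested. DESeq2 called 9 higher and 1 lower, against 3.82% and 3.59%. The median log2 fold change of the 16 was 0.47. Without rAAV8-Scramble replicate 3 the count called higher by edgeR was 3. Cyp7b1, an oxysterol hydroxylase, rose by 1.09 and the complement component C8b by 0.95 on the log2 scale (edgeR adjusted p = 0.00154 each). Elovl3, a fatty acid elongase, was not called by edgeR at -0.68 (adjusted p = 0.129) but was by DESeq2 (adjusted p = 0.00466). Of 17 female-biased genes only 5 had enough counts to be tested. EdgeR called 2 of these lower, Acot3 and Fmo2, and 0 higher, against 3.23% and 3.09% of all genes tested. Acot3 is also among the PPAR alpha targets above, so the lists are not separate. Fmo2 was called in the fit without knockdown replicate 3 but in no other fit with 1 library left out (adjusted p = 0.0967 to 0.137).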
